A study of Mus musculus with 4 samples.

Results

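Collagen chains need a long line of helper proteins before they become a fibre, and the 31 genes described here encode that machinery. They fold and modify procollagen in the endoplasmic reticulum (ER), carry it out of the cell, trim it and crosslink it. The genes were chosen by name. A list of 34 was drawn up, and every array probe set whose only annotated gene symbol was a listed gene, or an older name of it, was taken. That gave 48 probe sets for 31 genes, out of 45037 probe sets and 17097 genes on the array. P4ha1 and Fkbp10 are not analysed here. Fkbp14 was carried only by probe sets that also name Plekha8, so it was left out too.

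RNA came from ATDC5, a line of mouse cells that can be driven towards cartilage. The 2 knockdown arrays are cells transfected with an RNA duplex, labelled shRNA, against Chadl (chondroadherin-like, a leucine-rich repeat protein of cartilage matrix), and the 2 control arrays are cells transfected with a universal scrambled duplex. Each duplex was given at 30 nM with the lipid reagent Lipofectamine, the medium was changed to differentiation medium after 16 h, and all cells had been differentiated for 5 days. The knockdown rests on a single effective duplex, whose sequence is shown because it is the agent that separates the groups. The labels call it a 27-mer duplex and give 25 bases, without saying which strand they are.
Chadl duplex, bases given: acaagguagagaaacaaagagacca

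Titles give the arrays as biological replicates, and separate cultures are not stated. A p-value here thus reflects how far these 4 samples scatter, with each gene's scatter drawn towards that of genes of similar signal. That scatter could be technical. Values are log2 signals per probe set, and a gene is read by its probe set with the highest mean signal. The median probe set read 4.24 and 4.25 in the knockdown arrays and 4.24 and 4.25 in the control arrays. Chadl itself read 4.29 and 4.64 in the knockdown arrays, against 4.91 and 4.84 in the control arrays. The log2 difference of -0.41 (SE 0.12) did not pass over all genes (limma, adjusted p = 0.728). Chadl's 1 probe set had a mean signal of 4.67, below the median of all genes (4.86), where a change of transcript can be compressed. The knockdown arrays were unequal. Over all genes, the SD of the difference from the control mean was 0.20 in knockdown 1 and 0.12 in knockdown 2. The difference within the knockdown pair had an SD 1.93 times that within the control pair. Of 10 chondrocyte markers, 6 had a mean signal below the median of all genes (4.86), while the defining markers Col2a1 and Sox9 were above it on every array. The macrophage and endothelial markers measured had mean signals below 4.86 for 5 of 6 and 6 of 6 genes.

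As background, procollagen chains are hydroxylated on prolines and lysines while they are being made in the ER. Proline hydroxylation lets the helix of chains hold together at body temperature, and lysine hydroxylation sets where sugars are attached and which crosslinks can form. Chaperones hold the folded helix until enlarged COPII coats export it. Outside the cell the propeptides are cut off and lysyl oxidases join the molecules into fibrils. Cartilage depends on these steps because its matrix is built on type II collagen, and inherited loss of several of the proteins causes osteogenesis imperfecta, the brittle bone disease.

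The machinery as a whole differed little between knockdown and control arrays. No member passed at an adjusted p of 0.05 over all genes in limma. Adjusted p ranged from 0.743 to 0.994, and 0 of 17097 genes passed (0%). At an unadjusted p of 0.05, 2 members differed, beside 6.67% of all genes. Of them 0 were higher in knockdown (4.15% of all genes) and 2 lower (2.52% of all genes). That count was 0 without dim genes, 1 with the replicate number as a block, 3 with quantile normalization, and 0 to 14 when 1 array was left out. The median log2 difference was 0.0027 over the 31 members and 0.0067 over all genes. The members split evenly by sign, with 16 above and 15 below their control mean. Both knockdown arrays lay above both control arrays for 8 members, beside 21.2% of all genes. They lay below both for 4 members, beside 17.1% of all genes.

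The confidence intervals bound how large a difference could be. The 95% interval lay within a 1.5-fold difference in either direction for 29 of 31 members, and for 96.6% of all genes. It lay within 1.2-fold for 18 members, and for 46.9% of all genes. Pcolce2 and Colgalt2 were the exceptions at 1.5-fold, and Pcolce2 alone reached past 2-fold. These intervals take both pairs of arrays to vary alike, which the wider spread of the knockdown pair does not bear out. Array signal can also understate fold changes of dim genes, and 4 members (P4ha3, Colgalt2, Tll1 and Loxl2) had a mean signal below the median of all genes.

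**Figure D1:**
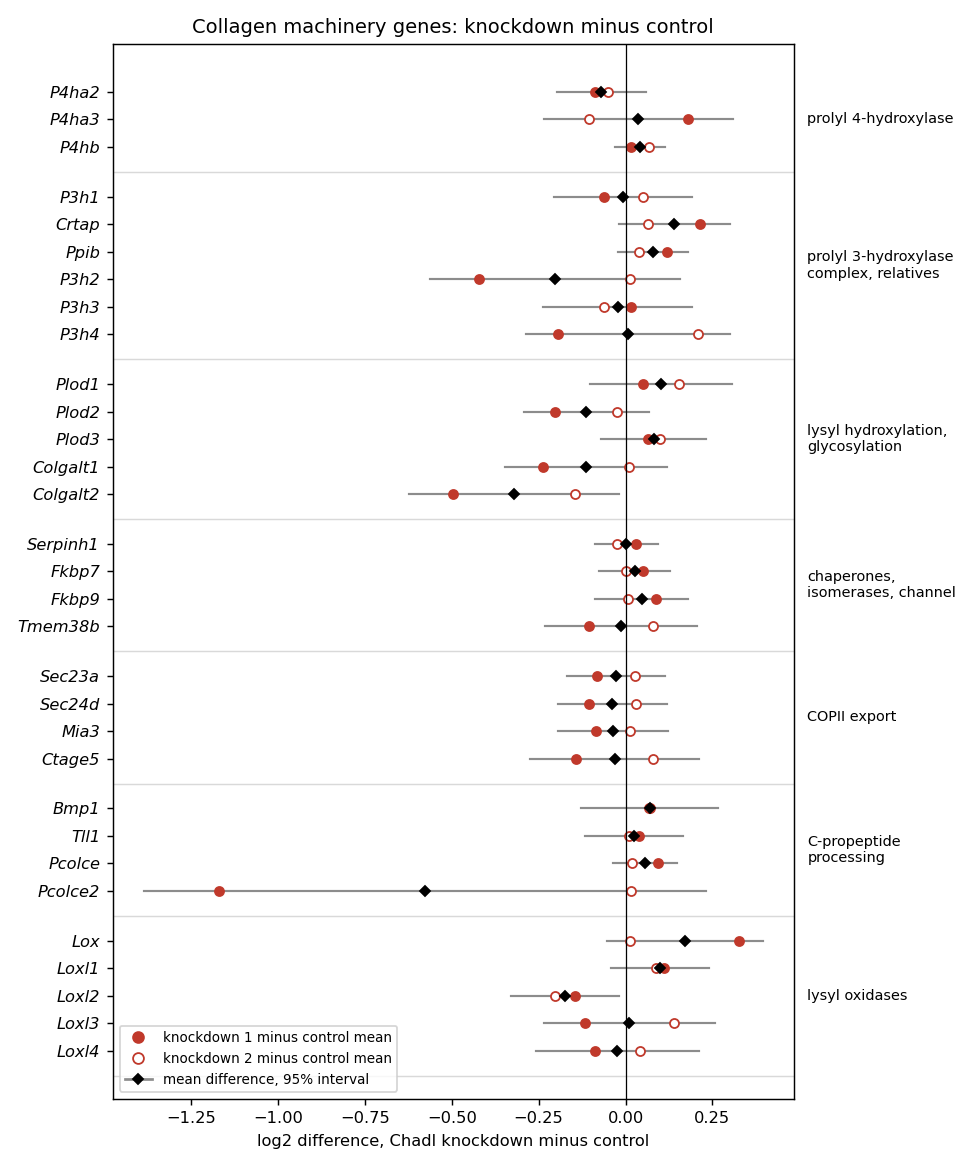
Log2 difference between Chadl knockdown and control for the 31 genes, in role groups from top to bottom. Filled and open circles show knockdown 1 and knockdown 2 minus the control mean, diamonds the mean difference and bars its 95% interval (limma, 2 arrays per group). Most diamonds lie close to 0, and the wide interval belongs to Pcolce2, whose 2 circles lie at -1.17 and 0.014.

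The prolyl 4-hydroxylase subunits were nearly level. P4hb, which is protein disulfide isomerase and the beta subunit of the enzyme, read 11.38 and 11.43 in the knockdown arrays and 11.35 and 11.37 in the control arrays. Its groups did not overlap, but the log2 difference was only 0.042 (95% interval -0.029 to 0.11). P4ha2, a catalytic alpha subunit, read 8.62 and 8.66 in the knockdown arrays, against 8.70 and 8.72 in the control arrays. The knockdown arrays were the lower ones, with a log2 difference of -0.069 (SE 0.053, unadjusted p = 0.239). P4ha3, another alpha subunit and a dim one, read 4.30 and 4.02 in the knockdown arrays and 4.07 and 4.18 in the control arrays, with overlapping groups.

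The P3h1, Crtap and Ppib proteins form a complex that hydroxylates a particular proline of fibrillar collagen at its 3 position and acts as a chaperone. Crtap, the scaffold of the complex, read 8.88 and 8.73 in the knockdown arrays and 8.68 and 8.66 in the control arrays. Both knockdown arrays were above both control arrays, with a log2 difference of 0.14 (SE 0.067, unadjusted p = 0.0769, adjusted p = 0.752 in limma). Ppib, cyclophilin B, a prolyl isomerase, read 10.41 and 10.33 in the knockdown arrays and 10.28 and 10.29 in the control arrays. Its groups did not overlap either, and its log2 difference was 0.079 (SE 0.042). The catalytic partner P3h1 did not share this: its signal was 6.07 and 6.19 in the knockdown arrays and 6.13 and 6.15 in the control arrays, a log2 difference of -0.0069. The other P3h1 probe set read 5.76 and 6.17 in the knockdown arrays and 6.18 and 6.17 in the control arrays. There knockdown 1 was low and knockdown 2 differed from the control mean by -0.0095.

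Of the relatives of P3h1, P3h4 and P3h2 parted between the knockdown arrays. P3h4, a non-enzymatic relative that works with lysyl hydroxylase 1, read 8.97 and 9.37 in the knockdown arrays and 9.18 and 9.14 in the control arrays. Knockdown 1 lay below both control arrays and knockdown 2 above both, so the mean difference was close to 0 (0.0073, 95% interval -0.29 to 0.30). P3h2, a prolyl 3-hydroxylase of basement membrane and other collagens, read 6.22 and 6.65 in the knockdown arrays and 6.72 and 6.55 in the control arrays. Knockdown 1 was low and knockdown 2 lay between the control arrays. P3h3, the remaining relative, read 5.24 and 5.16 in the knockdown arrays and 5.16 and 5.28 in the control arrays, with no separation. P3h2, P3h3 and P3h4 were measured by 1 usable probe set each.

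Among the lysine-modifying enzymes, the dim galactosyltransferase gene Colgalt2 had the lowest mean difference. Colgalt2, whose product adds galactose to hydroxylysine, read 4.28 and 4.63 in the knockdown arrays and 4.79 and 4.76 in the control arrays. The groups did not overlap, with a log2 difference of -0.32 (SE 0.13, 95% interval -0.62 to -0.019, unadjusted p = 0.0404, adjusted p = 0.743 in limma). Set against the control mean, knockdown 1 differed by -0.50 and knockdown 2 by -0.15. Colgalt1, the broadly expressed enzyme of the same step, read 7.19 and 7.43 in the knockdown arrays and 7.46 and 7.39 in the control arrays. Only knockdown 1 was low in it, and the log2 difference was -0.11. A dimmer Colgalt1 probe set read 5.48 and 5.62 in the knockdown arrays and 5.74 and 5.74 in the control arrays, with no overlap of the groups.

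The lysyl hydroxylases differed in sign from each other. Plod2, which hydroxylates the telopeptide lysines that form stable crosslinks, read 8.15 and 8.32 in the knockdown arrays and 8.36 and 8.34 in the control arrays. The knockdown arrays were lower, with a log2 difference of -0.11 (SE 0.075, unadjusted p = 0.18 in limma). Most of it lay in knockdown 1, at -0.20, with -0.024 in knockdown 2. The dimmer Plod2 probe set had overlapping groups and a difference of -0.027. Plod1, which acts on lysines of the helix, read 6.61 and 6.72 in the knockdown arrays and 6.62 and 6.51 in the control arrays, with overlap. Plod3, which hydroxylates lysines and also attaches sugars to them, read 7.79 and 7.82 in the knockdown arrays and 7.73 and 7.71 in the control arrays. Its log2 difference was 0.081 (SE 0.063), with both knockdown arrays above both control arrays.

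The chaperone and isomerase genes had some of the narrowest intervals. Serpinh1, which encodes the collagen-specific chaperone HSP47, read 10.53 and 10.47 in the knockdown arrays and 10.48 and 10.51 in the control arrays. The groups overlapped and the interval ran from -0.087 to 0.093 around a log2 difference of 0.0027. Its other probe set had the opposite sign (-0.057), at 10.29 and 10.16 in the knockdown arrays and 10.28 and 10.28 in the control arrays. Fkbp7 and Fkbp9, ER isomerases of the FK506-binding family, differed by 0.026 and 0.047, with overlapping groups. Tmem38b, an ER potassium channel that balances calcium release, differed by -0.014, with signals of 6.56 and 6.74 in the knockdown arrays and 6.64 and 6.69 in the control arrays. Of its other probe sets, those with mean signals of 6.54 and 6.25 had the opposite sign, at 0.0024 and 0.14. In the probe set at 0.14, knockdown arrays (6.39 and 6.25) were above control arrays (6.18 and 6.18).

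Read by their brightest probe sets, the 4 COPII export genes had overlapping groups and small differences. Sec23a, a subunit of the inner coat, read 8.99 and 9.10 in the knockdown arrays and 9.05 and 9.09 in the control arrays, a log2 difference of -0.027 (95% interval -0.17 to 0.11). Sec24d, its cargo-binding partner, differed by -0.038. Mia3 (TANGO1) and Ctage5, receptors that help large cargo such as procollagen into carriers, differed by -0.036 and -0.032. On these probe sets knockdown 1 lay below the control mean in all 4 genes (log2 differences of -0.14 to -0.083) and knockdown 2 above it (0.012 to 0.078). The arrays lay on opposite sides of the control mean in 15 of the 31 members and in 41.1% of all genes.

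Mia3 was read by 4 probe sets, and a dim one stood out after its values were seen. It read 3.76 and 3.54 in the knockdown arrays and 4.28 and 4.14 in the control arrays, a log2 difference of -0.56 (SE 0.10). Both knockdown arrays were below both control arrays, with an unadjusted p of 0.000765 and an adjusted p of 0.415 over all probe sets in limma. The brighter Mia3 probe sets, with mean signals of 8.40, 6.56 and 4.62, differed by -0.036, -0.076 and -0.12. In those at 6.56 and 4.62 both knockdown arrays also lay below both control arrays. Knockdown 2 differed there by -0.089 and -0.15 from the control mean. Over all probe sets, 1 of 45037 (0.00222%) passed an adjusted p of 0.05, and it was not a member. At an unadjusted p of 0.05, 0 of 48 member probe sets were higher (3.42% of all) and 3 lay lower (3.83% of all). The 3 were the dimmest Mia3 probe set and those of Colgalt2 and Loxl2.

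**Figure D2:**
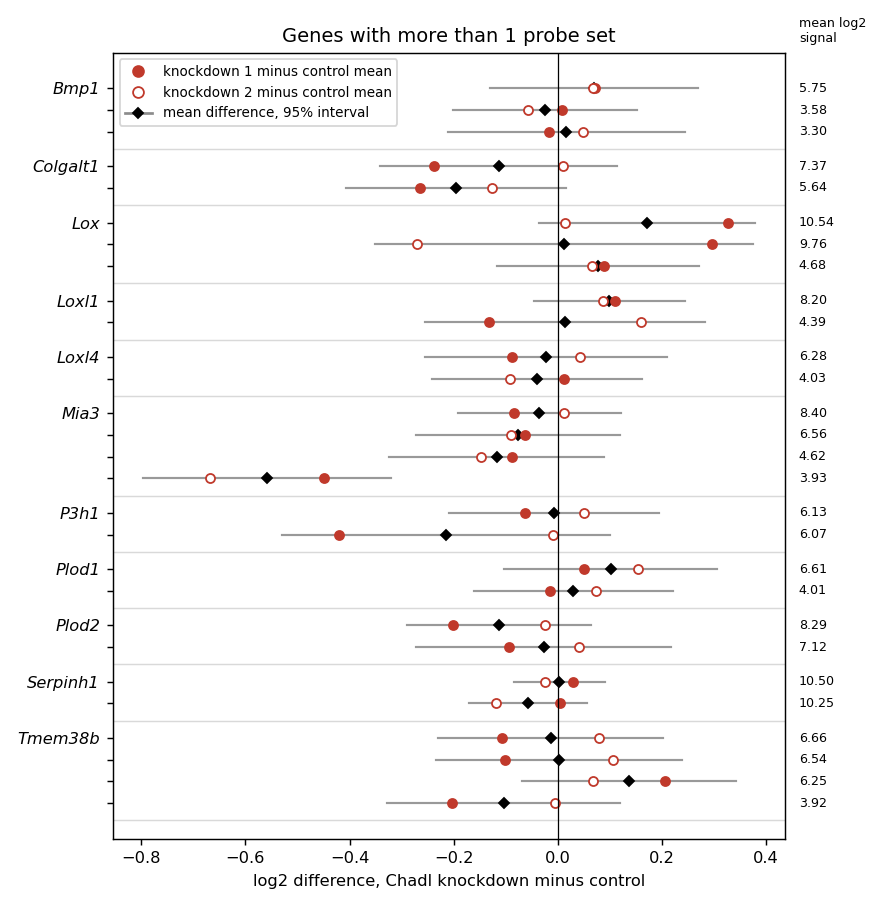
Log2 difference between Chadl knockdown and control for each probe set of the 11 member genes that have more than 1, brightest probe set on top within a gene, with mean log2 signal at the right. Filled and open circles show knockdown 1 and knockdown 2 minus the control mean, diamonds the mean and bars the 95% interval. The dimmest Mia3 probe set lies at -0.56, away from the other 3, and the middle Lox probe set has its 2 arrays on opposite sides of 0.

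The widest difference of the set lay in the procollagen processing group and in 1 array. Pcolce2, whose product enhances the protease that removes the C-propeptide, read 6.64 and 7.82 in the knockdown arrays and 7.84 and 7.77 in the control arrays. Knockdown 1 differed from the control mean by -1.17 on the log2 scale, while knockdown 2 lay between the control arrays. The mean log2 difference was -0.58 (SE 0.34, 95% interval -1.39 to 0.23, adjusted p = 0.768 in limma). This gene was chosen after its values were seen. Its paralogue Pcolce, an enhancer of the same protease, read 10.67 and 10.60 in the knockdown arrays and 10.58 and 10.58 in the control arrays. Its groups did not overlap, and the log2 difference was 0.055 (95% interval -0.037 to 0.15). The proteases themselves showed little: Bmp1, the main C-proteinase, differed by 0.069 and Tll1, its tolloid-like relative, by 0.024. Tll1 had signals of 2.67 to 2.74 over the 4 arrays, near the lowest value in the table (2.17), so a lower level could hardly be seen.

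Pcolce2 had the widest interval of the members. It is shown beside its paralogue Pcolce, each with the 250 bases before a transcript start, from RefSeq (GRCm38.p6). For Pcolce that start lies inside the gene's full annotated extent, so 118 of the 250 bases fall within the gene, and 0 do for Pcolce2. Capitals mark matches, on either strand, to any of 4 short motifs. The motif searched for the GC box was GGGCGG. For the box named after its letters it was CCAAT, for the core of hypoxia response elements ACGTG, and for the box bound by TBP it was TATAAA. None of them overlaps another in these windows.
Pcolce2, chr9:95637378-95637627, plus strand: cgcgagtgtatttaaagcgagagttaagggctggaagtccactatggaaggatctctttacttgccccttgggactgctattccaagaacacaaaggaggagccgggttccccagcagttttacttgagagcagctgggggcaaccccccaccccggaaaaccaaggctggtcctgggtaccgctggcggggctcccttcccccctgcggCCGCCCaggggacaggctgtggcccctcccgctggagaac
Pcolce, chr5:137611405-137611654, minus strand: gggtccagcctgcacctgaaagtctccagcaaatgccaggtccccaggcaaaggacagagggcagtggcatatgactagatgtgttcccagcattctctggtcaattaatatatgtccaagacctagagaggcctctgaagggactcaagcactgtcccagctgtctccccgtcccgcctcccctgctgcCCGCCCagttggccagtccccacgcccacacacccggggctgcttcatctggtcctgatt

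Each of these windows held 1 GC box and no match to the other motifs, and 61.2% (Pcolce2) and 58.8% (Pcolce) of their bases were G or C. RefSeq windows were matched for 20 of the 31 members, 22 windows in all. The GC box was in 16 of them (72.7%), against 32.7% of all 32851 windows, and ACGTG was in 9 (40.9%), against 16.6%. CCAAT was in 8 (36.4%), against 33.8%, and TATAAA in 2 (9.09%), against 12.4%. The windows of all genes include predicted genes, and base composition was not matched, so these shares describe the letters only.

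The lysyl oxidase family, which starts crosslinking by oxidising lysines, is named after Lox. Lox read 10.78 and 10.46 in the knockdown arrays and 10.46 and 10.44 in the control arrays. Both knockdown arrays were above both control arrays, but nearly all of the log2 difference of 0.17 (SE 0.093, unadjusted p = 0.113) lay in knockdown 1, at 0.33, with 0.014 in knockdown 2. Another bright Lox probe set read 10.05 and 9.49 in the knockdown arrays and 9.73 and 9.79 in the control arrays. There knockdown 1 was the highest array and knockdown 2 the lowest. Loxl1, which acts on elastin as well as collagen, read 8.26 and 8.24 in the knockdown arrays and 8.17 and 8.13 in the control arrays, a log2 difference of 0.10 (SE 0.059) that was alike in both knockdown arrays.

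The dim Loxl2 read 3.08 and 3.02 in the knockdown arrays and 3.20 and 3.25 in the control arrays. Its groups did not overlap, with a log2 difference of -0.17 (SE 0.065, unadjusted p = 0.0336, adjusted p = 0.743 in limma). With the replicate number as a block its unadjusted p was 0.053 in limma. Colgalt2 was the other member past an unadjusted p of 0.05. Loxl2 signals lay low on the array, where a change of transcript can be compressed. Loxl3 and Loxl4, of the same scavenger-receptor subfamily as Loxl2, had overlapping groups and differed by 0.011 and -0.023.

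**Figure D3:**
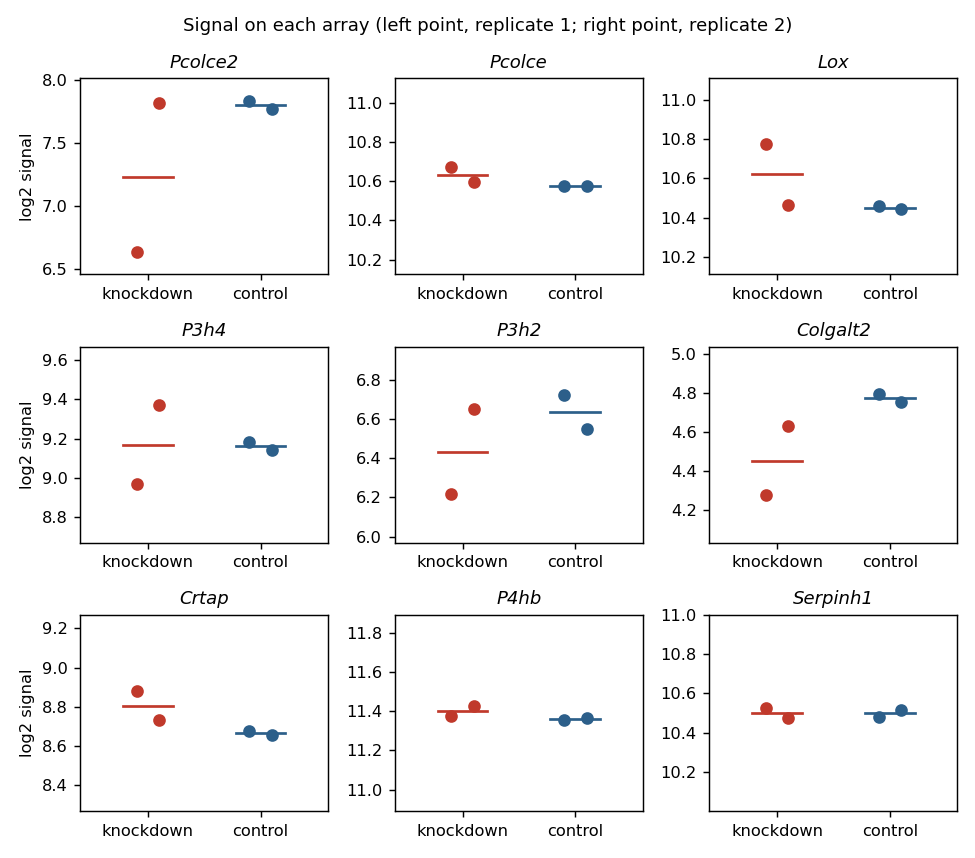
Log2 signal on each array for 9 member genes, knockdown at the left and control at the right of each panel, with replicate 1 left of replicate 2 and bars at the group means. Each panel has its own range of at least 1 log2 unit. Pcolce2, P3h2 and Colgalt2 are low in knockdown 1, P3h4 has its knockdown arrays on either side of the controls, and P4hb and Serpinh1 are nearly level.

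The members' values were closer to control in knockdown 2 than in knockdown 1. A deviation of more than 1.2-fold from the control mean was seen for 4 members in knockdown 1 (12.9%, beside 11.0% of all genes) and for 0 in knockdown 2 (beside 3.79% of all genes). They were Pcolce2, Colgalt2, P3h2 and Lox. The members' deviations ran from -1.17 to 0.33 in knockdown 1 and from -0.20 to 0.21 in knockdown 2. The knockdown arrays lay further apart from each other than the control arrays for 25 members (80.6%), and for 63.4% of all genes. The median member deviation was -0.063 in knockdown 1 and 0.018 in knockdown 2, beside -0.0031 and 0.014 over all genes.

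How many members passed therefore depended on which knockdown array was kept. Without knockdown 2, 10 of 31 members passed an adjusted p of 0.05 in limma, beside 15.1% of all genes. They were Pcolce2 (-1.17), Colgalt2 (-0.50), P3h2 (-0.42), Colgalt1 (-0.24), Plod2 (-0.20), P3h4 (-0.19), Lox (0.33), Crtap (0.22), Ppib (0.12) and Pcolce (0.093). Without knockdown 1, the sole member to pass was P3h4 (0.21), beside 3.28% of all genes, and its sign was the opposite. In each of these fits a single knockdown array is taken to vary like the controls. They therefore describe that array and carry no replicate check of the knockdown. They also read each gene by its brightest probe set. Among the dimmer probe sets, the widest deviations from the control mean in knockdown 2 were those of Mia3 (-0.67 and -0.15), Lox (-0.27), Loxl1 (0.16), Colgalt1 (-0.13) and Serpinh1 (-0.12).

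**Figure D4:**
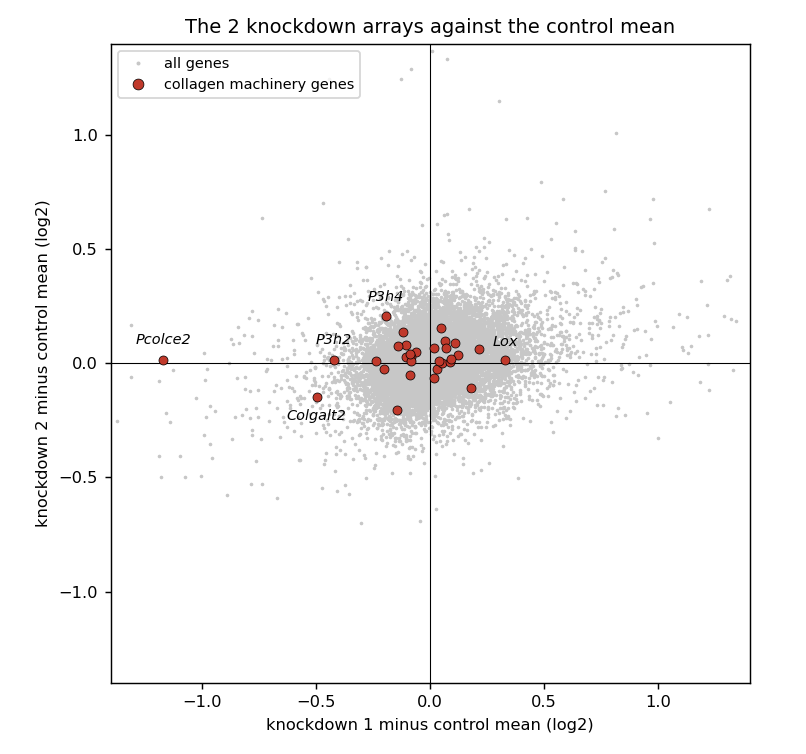
Deviation of each gene from its control mean in knockdown 1 (horizontal axis, log2) and knockdown 2 (vertical axis, log2), with 31 collagen machinery genes in red over all 17097 genes in grey. A further 21 genes lie outside the axes. The members spread along the horizontal axis, out to Pcolce2 at -1.17, and stay between -0.20 and 0.21 on the vertical axis.

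Chondrocyte, osteoblast and smooth muscle markers also differed more in knockdown 1 than in knockdown 2, though some differed in both. The 10 chondrocyte markers had a summed log2 signal of 50.3 and 53.6 in the knockdown arrays and 53.6 and 53.9 in the control arrays. Of the 10, 9 had a negative mean difference, as had 8082 of all 17097 genes. The groups overlapped for 7 of the 10, and for 61.7% of all genes. The widest deviations of knockdown 1 from the control mean were those of the cartilage matrix genes Col2a1 (-0.82), Matn1 (-0.77), Col9a1 (-0.68) and Hapln1 (-0.62). Knockdown 2 lay above the control mean for Col2a1 (0.12), Matn1 (0.047) and Col9a1 (0.17), and below it for Hapln1 (-0.20). Matn1 and Hapln1 had mean signals below 4.86, and the other Col9a1 probe set had a mean difference of the opposite sign. Of 9 osteoblast markers listed, 6 were measured. Their summed log2 signal was 34.2 and 39.4 in the knockdown arrays and 41.6 and 41.5 in the control arrays. Both knockdown arrays were below both controls for 5 of 6, and for 17.1% of all genes. Ibsp was low in both, at -3.13 from the control mean in knockdown 1 and -1.14 in knockdown 2, while Phex had overlapping groups. The smooth muscle marker Acta2 read 10.75 and 10.33 in the knockdown arrays and 9.92 and 9.94 in the control arrays, but its other probe set had the opposite sign. The other smooth muscle markers were Cnn1 (0.26) and Myh11 (0.050), with overlapping groups, and Des (-0.12), with both knockdown arrays below both controls. All 3 had mean signals below 4.86. The summed signal of the 4, of 6 listed, was 23.5 and 22.6 in the knockdown arrays and 22.3 and 22.3 in the control arrays. Of 5 adipocyte markers measured (7 listed), 4 had a positive mean difference, as had 9015 of all 17097 genes, and 1 a negative one. In knockdown 1 and knockdown 2, the dim Fabp4 differed from the control mean by 0.24 and 0.17. The dim Adipoq, the negative one, differed by -0.27 and -0.067. The part of any of these markers in the members' values was not tested. In such bulk RNA, fewer cells of a type and less RNA per cell cannot be told apart.

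The collagen chains that the machinery works on differed more often than the members at the unadjusted level, without passing over all genes. Of 11 fibrillar collagen genes, 0 passed over all genes, at an unadjusted p of 0.05 in limma 1 lay higher (4.15% of all genes) and 3 lay lower (2.52% of all genes), and the median log2 difference was -0.042. The higher one was Col11a1, a chain of type XI collagen (0.15). The lower ones were Col1a1 of type I collagen (-0.14), Col11a2 (-0.36) and Col27a1 (-0.40). Col11a2 had a mean signal of 4.33, below the median of all genes (4.86). Col27a1 differed from the control mean by -0.62 in knockdown 1 and by -0.18 in knockdown 2. Col2a1, the main chain of cartilage, read 8.23 and 9.17 in the knockdown arrays and 9.01 and 9.08 in the control arrays. As in Pcolce2, the low array was knockdown 1.

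Neighbouring steps of the pathway gave unlike pictures. In each list 0 genes passed over all genes, as 0 of 17097 did on the whole array. Of the 3 N-propeptide proteases measured, of 5 listed, Adamts3 was higher at an unadjusted p of 0.0131, with 5.55 and 4.93 in the knockdown arrays and 4.65 and 4.50 in the control arrays. Of 13 other COPII genes (15 listed), Sar1a, the small GTPase that starts the coat, differed by -0.13 (unadjusted p = 0.0397), and its other probe set went the opposite way. The list's median was -0.014. Among 14 other ER folding genes (15 listed), 0 passed an unadjusted p of 0.05 in limma and the median was 0.00047. Canx (calnexin) differed by -0.014 and Hsp90b1 (GRP94), another ER chaperone, by -0.0043. Of 8 further genes linked to osteogenesis imperfecta (9 listed), 8 had a negative difference, as had 8082 of all 17097 genes. Both knockdown arrays were below both controls for 5, and for 17.1% of all genes. Their median was -0.080, and 0 passed an unadjusted p of 0.05. Sparc, a collagen-binding matrix protein, and Serpinf1, a secreted serpin, differed by -0.040 and -0.050.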

How the data were processed

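Affymetrix 3′ arrays were hybridised, per the labels' protocols. The authors deposited 1 log2 signal for each probe set, made with RMA according to the submitters' processing notes. RMA makes the arrays' distributions alike and compresses changes of dim genes, and no version is named in the sources used here. Base 2 was inferred from the lowest and highest values (2.17 and 12.72). Background correction could not be varied, and no scan or slide batch is recorded in the sources used here. Of 45141 probe sets, 104 array controls were left out. Symbols came from the platform annotation, which can be old, and 28898 probe sets carried 1 symbol. Each gene was read by its probe set with the highest mean.

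The groups were compared by limma 3.58.1 under R 4.3.3 (a linear model with trended eBayes, 2 residual and 4.45 prior degrees of freedom), adjusted by Benjamini-Hochberg over all genes or all probe sets, two-sided, with no filter. The number of arrays, 2 per group, limits the precision. Members and lists were chosen with earlier results of these data known. Array values were given for members with an unadjusted p under 0.05, those separated by 0.2 or more, the brightest of each role and those with bright probe sets of opposite sign, and for others chosen after their values were seen. From each other pathway list, up to 4 genes with an unadjusted p under 0.05 were named or, where none, the 2 brightest. Alternatives were quantile normalization, median centring, leaving out dim genes, the mean of a gene's probe sets, eBayes without trend or robust, an adjusted p of 0.1, a block for the replicate number, and omission of each array.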

Additional observations from a re-analysis of the deposited data

How the results depend on the processing

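No member passed under quantile normalization, median centring, the filter on dim genes (below the 40th percentile), the mean of probe sets, eBayes without trend, robust eBayes, an adjusted p of 0.1 or the replicate block, and 0 genes passed in any of them. The member median was -0.0021 without dim genes. In these settings 212 of 214 member values kept their sign. The exceptions were Serpinh1 (-0.027) and Tmem38b (0.0054) with the mean of probe sets, which averages probe sets of opposite sign. The eBayes settings, the replicate block and the filter on dim genes leave each log2 difference as it was, so no sign could turn there. Nor could it turn with the mean of probe sets for genes with 1 probe set. The count of kept signs is thus no check of the values in those settings. Members at an unadjusted p under 0.05 numbered 0 without dim genes, where Colgalt2 had a limma p of 0.0509 and Loxl2 was filtered out. They numbered 3 with quantile normalization, which added P4hb (log2 difference 0.072, unadjusted limma p of 0.0312). With the mean of probe sets they numbered 3, adding Mia3 (log2 difference -0.20, unadjusted limma p of 0.0222). The number of probe sets that passed, 1 in the report, was 0 without trend, 3 with robust eBayes and 2 with the replicate block. The replicate numbers are not stated to pair the samples, same-numbered arrays did not deviate together (correlation -0.0041 over genes), and under the block 1 member, not 2, had an unadjusted p under 0.05, since Loxl2 reached 0.053 in limma. Leaving out an array gave 0 to 2584 genes, 0 to 5749 probe sets, 0 to 10 members, 0 to 14 members at an unadjusted p under 0.05, and a member median of -0.063 to 0.018. Fits without 1 array take the lone sample to vary like the other group. Signs turned in some of these fits for 16 members, with ranges of -0.11 to 0.18 for P4ha3, -0.063 to 0.049 for P3h1, -0.42 to 0.013 for P3h2, -0.084 to 0.038 for P3h3, -0.19 to 0.21 for P3h4, -0.24 to 0.010 for Colgalt1, -0.024 to 0.029 for Serpinh1 and -0.11 to 0.079 for Tmem38b. Ranges were -0.083 to 0.029 for Sec23a, -0.11 to 0.030 for Sec24d, -0.084 to 0.012 for Mia3, -0.14 to 0.078 for Ctage5, -0.0089 to 0.057 for Tll1, -1.17 to 0.014 for Pcolce2, -0.12 to 0.14 for Loxl3 and -0.11 to 0.067 for Loxl4. The cause of these turns was not tested. RMA files give no detection call, so which dim members were above background is unknown.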
